A study of Mus musculus with 8 samples.

Results

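Chemokines are small secreted proteins that guide leukocytes, and 10 of them were followed here in the liver of obesity-prone mice. They were Ccl2, Ccl4, Ccl5, Ccl6, Ccl9, Cxcl1, Cxcl9, Cxcl10, Cxcl12 and Cxcl13, which is 10 of the 26698 genes that the array names. Each was found through the RefSeq accession of its probe, and all 10 were among the 42982 features that could be tested. RNA from livers of male mice was labelled with Cy3 and hybridised to 1-colour Agilent arrays, 1 array per sample. The mice, 5 weeks old, were congenic animals on a New Zealand Obese (NZO) background, which is prone to obesity and fatty liver, and both genotypes were fed 45% fat. The genotypes were Ltg/NZO.5.3N/N, called NN here (arrays 1, 4, 6 and 7, n = 4), and Ltg/NZO.5.3N/B, called NB here (arrays 2, 3, 5 and 8, n = 4). They are described as differing in 5.3 Mbp of chromosome 18, and the strain label names C57BL/6J as the other parent of the congenic line. Whether every array came from its own animal is not stated, and the p-values therefore reflect sample-to-sample spread, which may be partly technical. Whole liver was used, with no sorting of cells.

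Chemokines act on receptors of the G protein-coupled class on leukocytes, and their names follow the spacing of conserved cysteines, adjacent in the CC group and 1 residue apart in the CXC group. Inflammatory chemokines are made on demand, under nuclear factor kappa B and interferon signals, by Kupffer cells, hepatocytes, stellate cells and endothelium. Homeostatic chemokines such as Cxcl12 are made all the time and hold cells in their niches. In fatty liver, Ccl2 is best known for bringing in monocytes, Cxcl1 for neutrophils, and Cxcl9 and Cxcl10 for T and natural killer cells.

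Signals are given as log2 of the processed intensity minus the 75th percentile of the same array, so that 0 is the level of that percentile. The percentile itself ranged from 445 to 584.4 intensity units. The scanner software marked 74.4% to 79.6% of probes per array as well above background. Precision is set by having 4 arrays in each genotype. Of 10 hepatocyte markers, 9 were on the array, albumin among them, and all 9 were well above background on all 8 arrays. All 10 chemokines were well above background on all 8 arrays as well. In bulk liver RNA, fewer cells of a type and less RNA per cell cannot be told apart.

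No difference between the genotypes passed the test for any of the 10 chemokines. With limma (two-sided, Benjamini-Hochberg adjustment over all features), 0 of 10 passed an adjusted p of 0.05, each with an adjusted p of 1. Over the whole array 3 of 42982 features passed, or 0.00698%, and these were the features higher in NB (0.00698%), with 0% lower. At an unadjusted p under 0.05 the chemokines again numbered 0 of 10, against 728 features or 1.69% of the array. The arrays of the genotypes overlapped for every chemokine, whereas over the array 0.426% of features with a value on every array lay wholly higher in NB and 0.673% wholly lower. Of the 10, 6 had a positive and 4 a negative log2 fold change of NB over NN, with a median of 0.02. The median over all features was −0.0097, and 45.9% were positive. Arrays of NN and NB sat side by side in 4 slide columns, 1 of each per column, and with the column as a block 0 of 10 chemokines passed either threshold, while 1228 features had an unadjusted p under 0.05. That block lowered the SE of the log2 fold change from 0.225 to 0.13 for Ccl2, from 0.239 to 0.126 for Cxcl1 and from 0.186 to 0.0903 for Cxcl10. Within columns, NB was above NN in 4 of 4 columns for Ccl5 and Ccl9, in 3 for Ccl6, Cxcl12 and Cxcl13, in 2 for Ccl2 and Ccl4, and in 1 for Cxcl1, Cxcl9 and Cxcl10. In column 4 the log2 difference was only 0.0015 for Ccl5 and 0.0047 for Ccl9. The share of all features with 4 of 4 columns in the same direction was not computed. In none of 21 alternative fits did a chemokine pass the adjusted or the unadjusted threshold.

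**Figure D1:**
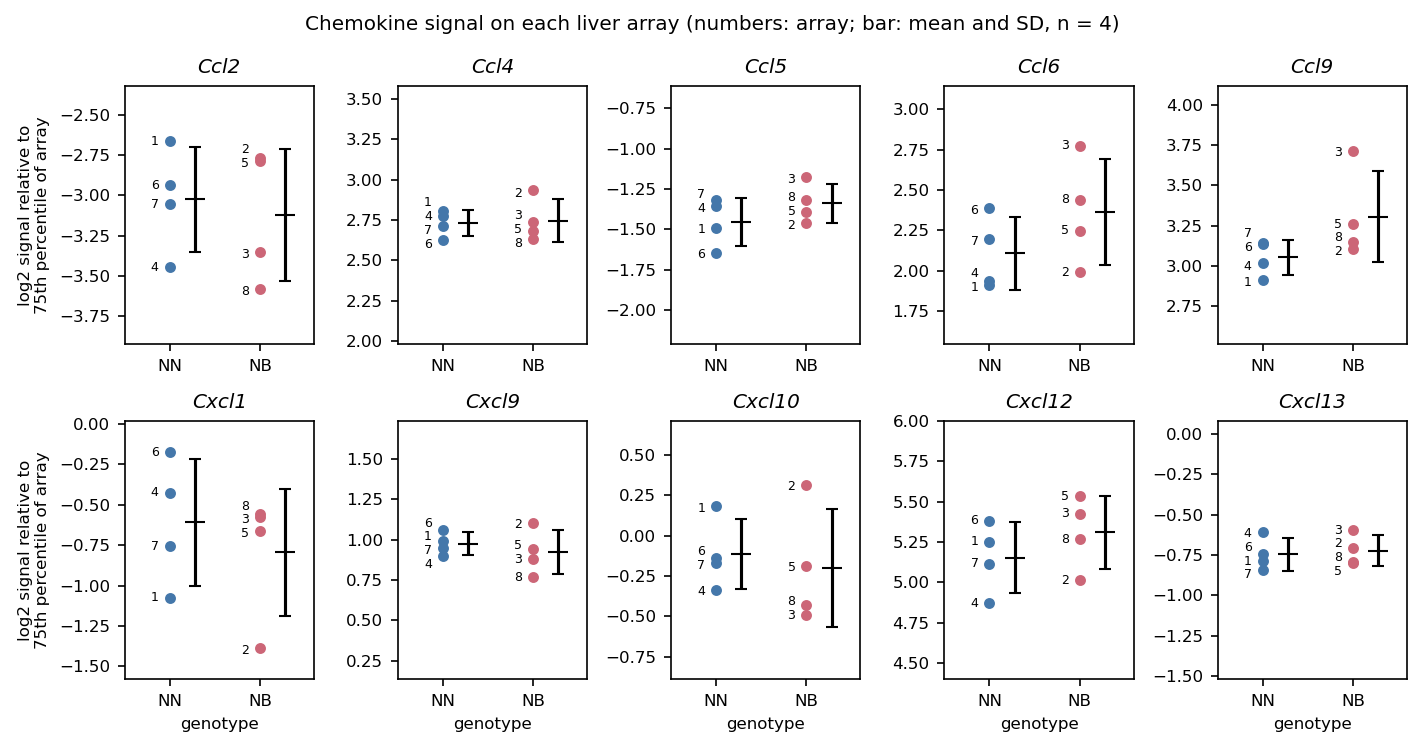
Each panel plots 1 chemokine as log2 signal relative to the 75th percentile of the array, with a point for each array, its array number beside it, and the mean with SD for each genotype (n = 4). All panels span the same number of log2 units, so Cxcl1 and Ccl2 are seen to be the widest spread, and the genotypes overlap in every panel.

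Ccl2, also called monocyte chemoattractant protein 1, is the main ligand of the monocyte receptor CCR2. Its signal was −2.66, −3.44, −2.94 and −3.05 on NN arrays 1, 4, 6 and 7, and −2.77, −3.35, −2.78 and −3.58 on NB arrays 2, 3, 5 and 8. The high arrays were NN 1, NB 2 and NB 5, and the low ones NN 4, NB 3 and NB 8, so high and low arrays came from each genotype. Means were −3.02 ± 0.32 in NN and −3.12 ± 0.41 in NB (SD, n = 4 each), a log2 fold change of −0.10 (SE 0.225, limma adjusted p = 1). The 95% confidence interval allowed a Ccl2 level in NB between 0.656 and 1.34 times that of NN, or 0.748 to 1.17 times with the slide column as a block. The Ccl2 probe read 39.2 to 86 intensity units.

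Ccl4, a chemokine made by activated macrophages and lymphocytes, was among the steadiest. It lay at 2.81, 2.77, 2.62 and 2.71 on NN arrays 1, 4, 6 and 7 and at 2.94, 2.74, 2.68 and 2.63 on NB arrays 2, 3, 5 and 8. Array NB 2 was the highest, and the other 7 arrays lay close together. The log2 fold change of Ccl4 was 0.02 (SE 0.0898, limma adjusted p = 1), and its interval of 0.879 to 1.17 times was narrow.

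Probe sequences are shown for Ccl4, for the neighbouring genes Ccl9 and Ccl6, and for both Cxcl12 probes, since they set which RNA each value reads. They are the first 30 bases as the scanner files list them, 5′ to 3′. Capitals mark an ATG in the Ccl4 probe and, in that of Ccl9, AATAAA, the hexamer of polyadenylation signals.
Ccl4 probe: caacaccATGaagctctgcgtgtctgccct
Ccl9 probe: aactaggatgaAATAAAttctgccttagcc
Ccl6 probe: tattagggtagtctttggggctttggaatg
Cxcl12 probe of NM_021704: atgtattgtagctttccggtgtcagccacg
Cxcl12 probe of NM_001012477: ggagaaggcagcttcctatatgcagcgtgt
The ATG of the Ccl4 probe begins at its base 8. Whole probes of the chemokines were 44 to 56 bases long, and between different chemokines the longest shared run was 11 bases. None of the probes shared a run of 20 bases with any other probe of the array.

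Ccl5, known as RANTES, binds CCR1 and attracts T cells. Its values were −1.49, −1.36, −1.65 and −1.32 on NN arrays 1, 4, 6 and 7, and −1.46, −1.18, −1.40 and −1.32 on NB arrays 2, 3, 5 and 8. Array NB 3 was the highest and NN 6 the lowest, with the remaining arrays intermixed. Mean signals were −1.45 ± 0.15 in NN and −1.34 ± 0.12 in NB (SD, n = 4 each), and the log2 fold change was 0.11 (SE 0.101, limma adjusted p = 1; interval 0.924 to 1.27 times). Without NN 6 the log2 fold change of Ccl5 was 0.05, and without NB 3 it was 0.06.

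Ccl6 and Ccl9 are CC chemokines of rodents that bind CCR1 and are made by macrophages and other myeloid cells. They had the 2 most positive differences of the 10. Ccl6 was at 1.92, 1.94, 2.39 and 2.19 on NN arrays 1, 4, 6 and 7, and at 1.99, 2.78, 2.25 and 2.44 on NB arrays 2, 3, 5 and 8. Its lowest arrays were NN 1, NN 4 and NB 2, and NB 3 stood above the rest. The genotype means were 2.11 ± 0.23 in NN and 2.36 ± 0.33 in NB (SD, n = 4 each), a ratio of NB to NN of 1.19 (log2 fold change 0.26, SE 0.177, limma adjusted p = 1; interval 0.903 to 1.58 times).

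Ccl9 was at 2.91, 3.02, 3.14 and 3.14 on NN arrays 1, 4, 6 and 7, and at 3.10, 3.72, 3.26 and 3.15 on NB arrays 2, 3, 5 and 8. NB 3 was again the highest array, and 3 of 4 NB arrays lay above every NN array. The means were 3.05 ± 0.11 in NN and 3.31 ± 0.28 in NB (SD, n = 4 each), again a ratio of 1.19 (log2 fold change 0.25, SE 0.139, limma adjusted p = 1; interval 0.957 to 1.48 times). Its unadjusted p of 0.104 was the smallest of the 10. Both values depended on 1 array: without NB 3, the log2 fold change was 0.12 for Ccl6 and 0.12 for Ccl9.

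Macrophage and neutrophil markers were set beside these values. All 11 Kupffer cell markers were well above background on all 8 arrays, and their summed linear signal, in units of the array's 75th percentile, was 66.4 to 73.8 in NN and 74.3 to 82.3 in NB. Of these markers 10 had a positive log2 fold change, against 45.9% of all features, and 0 passed the limma test. Without Slc40a1, the iron exporter gene that gave the most signal, the sums of the genotypes overlapped, at 47.3 to 53.3 in NN and 52.1 to 60.2 in NB. Without both Slc40a1 and Cd5l they did not overlap: the other 9 markers summed to 35.1 to 36.8 in NN and 37.4 to 41.2 in NB. Among single features of the array, 0.426% lay wholly higher in NB. No such share was computed for sums of several genes. As a mean deviation from the 8-array average, the Kupffer cell list was negative on NN 1 (−0.17), NN 4 (−0.22) and NB 2 (−0.07), which were the 3 lowest arrays of Ccl6. The neutrophil list was negative on the same arrays, at −0.13, −0.35 and −0.26. In the Kupffer cell list, Marco ranged 5.51-fold over the arrays and was lowest on these 3, at −0.67, −0.62 and 0.10. It was at 0.96 to 1.79 on the other arrays, so Marco weighed heavily in the Kupffer cell mean. Clec4f, Cd5l, Adgre1 and Folr2 were also lowest on these 3 arrays, over narrower ranges of 1.35, 1.65, 1.39 and 1.26-fold. Vsig4, Timd4, C6, Cd163, Clec1b and Slc40a1 were not. At the high end, both lists were highest on NB 5, at 0.19 and 0.31, where Ccl6 deviated by 0.013. Marco was also highest on NB 5, at 1.79. On NB 3, the top array of Ccl6 and Ccl9, the 2 lists were at 0.14 and 0.055. Of 11 markers of monocytes and recruited macrophages, 10 were tested, and their sum was 189 to 223 in NN and 194 to 232 in NB, with NB 3 the highest array. Fn1, which hepatocytes also make, and Trem2 gave 90.7% to 93.3% of that sum, and the other 8 markers summed to 14.8 to 18.3 in NN and 17.3 to 21.5 in NB, again highest on NB 3. The part of these cell types in the Ccl6 and Ccl9 signals was not tested.

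**Figure D2:**
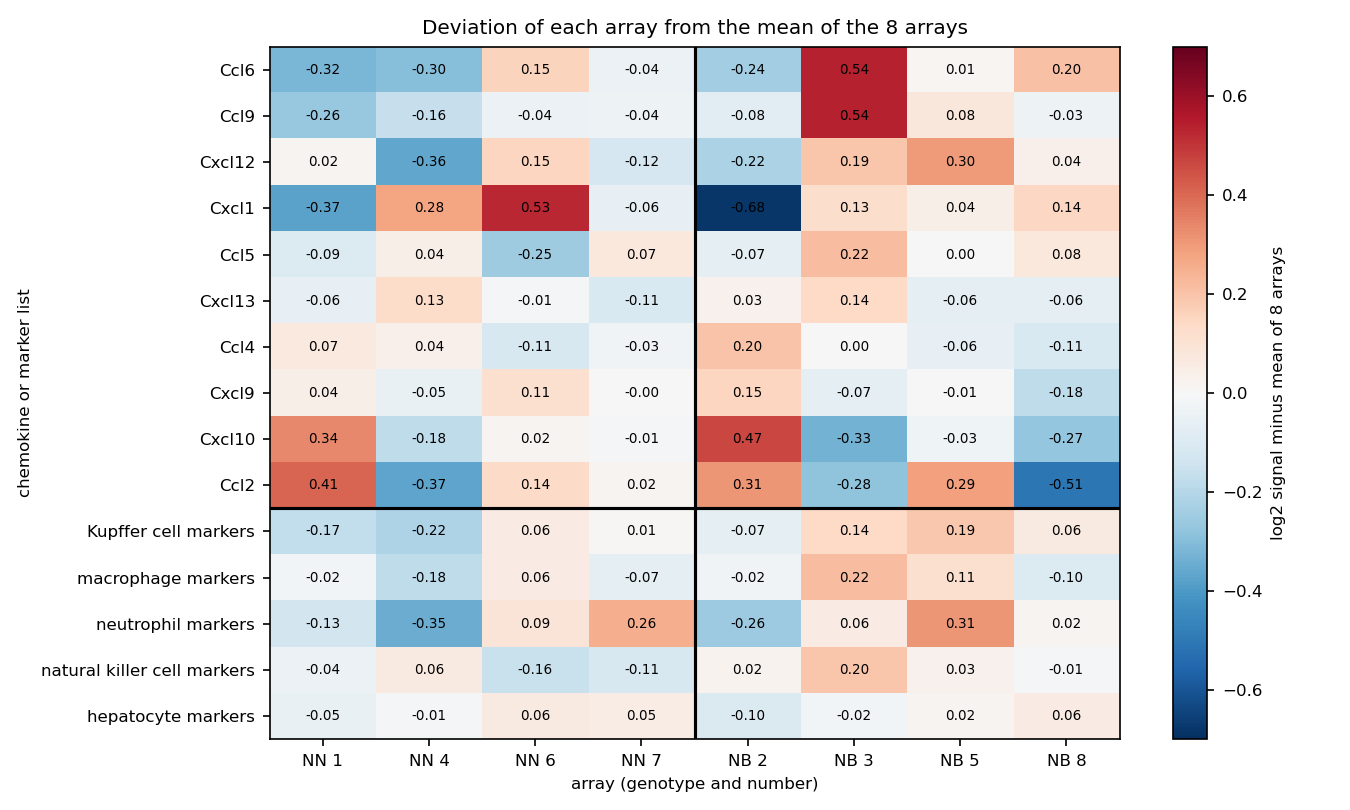
The heat map gives, for each array (columns, NN left and NB right), the log2 signal minus the mean of the 8 arrays, for the 10 chemokines and, under the line, the mean over the tested markers of 5 cell types. Array NB 3 stands at 0.54 for both Ccl6 and Ccl9, while NB 2 stands at −0.68 for Cxcl1 and 0.47 for Cxcl10.

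Cxcl1 attracts neutrophils through CXCR2 and is a classical target of nuclear factor kappa B. It varied most between arrays: −1.08, −0.42, −0.17 and −0.76 on NN arrays 1, 4, 6 and 7, and −1.38, −0.58, −0.66 and −0.56 on NB arrays 2, 3, 5 and 8. From the lowest array, NB 2, to the highest, NN 6, the signal changed 2.31-fold. The other NB arrays lay within −0.66 to −0.56, inside the range of NN. Means of Cxcl1 were −0.61 ± 0.39 in NN and −0.80 ± 0.40 in NB (SD, n = 4 each), with a log2 fold change of −0.19 (SE 0.239, limma adjusted p = 1; interval 0.602 to 1.28 times). Single arrays moved this value: it was 0.0093 without NB 2, −0.043 without NN 6 and −0.34 without NN 1. With the slide column as a block its interval was 0.708 to 1.09 times.

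Cxcl9 and Cxcl10 are ligands of CXCR3, the receptor of effector T and natural killer cells, and are induced by interferon gamma. Cxcl9 was at 0.99, 0.90, 1.06 and 0.95 on NN arrays 1, 4, 6 and 7 and at 1.1, 0.88, 0.94 and 0.77 on NB arrays 2, 3, 5 and 8. All 8 arrays lay within a 1.26-fold range, with NB 2 highest and NB 8 lowest. The log2 fold change of Cxcl9 was −0.05 (SE 0.0888, limma adjusted p = 1; interval 0.840 to 1.11 times).

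Cxcl10 was at 0.18, −0.34, −0.14 and −0.17 on NN arrays 1, 4, 6 and 7 and at 0.31, −0.49, −0.19 and −0.43 on NB arrays 2, 3, 5 and 8. NB 2 and NN 1 were the highest, so the top arrays came from different genotypes. Means of −0.12 ± 0.22 in NN and −0.20 ± 0.36 in NB (SD, n = 4 each) gave a log2 fold change of −0.08 (SE 0.186, limma adjusted p = 1; interval 0.704 to 1.27 times, or 0.808 to 1.1 times with the slide column as a block).

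Cxcl12, or stromal cell-derived factor 1, binds CXCR4 and ACKR3 and is made by stromal, stellate and endothelial cells. Its probe with the higher mean signal, of transcript NM_001012477, gave 5.25, 4.87, 5.38 and 5.11 on NN arrays 1, 4, 6 and 7, and 5.01, 5.43, 5.53 and 5.27 on NB arrays 2, 3, 5 and 8. Arrays NB 5 and NB 3 were the highest and NN 4 the lowest. The means were 5.15 ± 0.22 in NN and 5.31 ± 0.23 in NB (SD, n = 4 each), with a log2 fold change of 0.16 (SE 0.144, limma adjusted p = 1; interval 0.888 to 1.40 times). It was 0.06 without NN 4, 0.08 without NB 5, 0.25 without NB 2 and 0.26 with array weights. A second probe, of transcript NM_021704, gave 4.89, 4.59, 4.81 and 4.61 on NN arrays 1, 4, 6 and 7, and 4.67, 4.80, 4.85 and 4.85 on NB arrays 2, 3, 5 and 8. Its log2 fold change was 0.07 (SE 0.0941, adjusted p = 1 with limma on every probe), positive as with the first probe and smaller.

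Cxcl13 guides B cells through CXCR5 into follicles. It was at −0.79, −0.61, −0.74 and −0.84 on NN arrays 1, 4, 6 and 7, and at −0.70, −0.60, −0.80 and −0.79 on NB arrays 2, 3, 5 and 8. This was the narrowest range of the 10, at 1.19-fold over all 8 arrays. The log2 fold change of Cxcl13 was 0.02 (SE 0.0844, limma adjusted p = 1; interval 0.889 to 1.16 times).

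**Figure D3:**
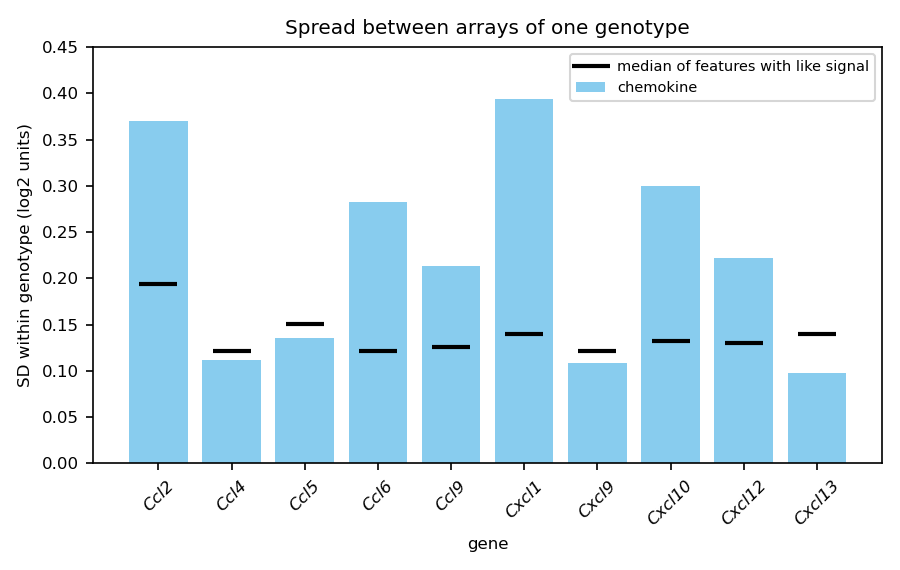
Bars give the SD between arrays of the same genotype for each chemokine, in log2 units from 0, and the black dash is the median SD of features with a mean signal within 0.5 log2 units. Cxcl1, Ccl2, Cxcl10, Ccl6, Cxcl12 and Ccl9 lie above the dash, and Ccl4, Ccl5, Cxcl9 and Cxcl13 below it. Differences between slide columns were not removed from these SDs.

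The chemokines fell on either side of the array in how much they varied within a genotype. The SD was 0.394 for Cxcl1, against a median of 0.140 for features of like signal, which placed it above 96.2% of them. For Ccl2 it was 0.370 against 0.194, for Cxcl10 0.300 against 0.132, and for Ccl6 0.283 against 0.121. The steady ones were Cxcl13 at 0.0981 against 0.140 and Cxcl9 at 0.109 against 0.122, so these ligands varied less than most features of their signal. These SDs come from the fit without slide column, and still hold any difference between columns. With the column as a block, the SE of the log2 fold change of Cxcl1 fell from 0.239 to 0.126. Those of Ccl2 and Cxcl10 fell as well. The SD values are descriptive and carry no test.

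Relations among the chemokines were examined across the 8 arrays, and no pair of chemokines passed the threshold. Over all 45 pairs, exact permutation tests (two-sided, Benjamini-Hochberg over the pairs) gave 0 pairs past an adjusted p of 0.05, by Pearson or by Spearman correlation, while 7 had an unadjusted p under 0.05 for Pearson's r. These tests treated the 8 arrays as exchangeable and did not take slide column into account. In column 1, NN 1 and NB 2 deviated from the 8-array mean by 0.41 and 0.31 for Ccl2. They deviated by 0.34 and 0.47 for Cxcl10, and by −0.37 and −0.68 for Cxcl1. In column 4, NN 7 and NB 8 lay apart for Ccl2, at 0.018 and −0.51. The part of slide column in the correlations was not tested. Ccl6 and Ccl9 had r = 0.87 (exact permutation p = 0.00427, adjusted p = 0.126) and rho = 0.88 (exact permutation p = 0.00724, adjusted p = 0.138). With genotype means removed r was 0.83, and without arrays NB 3 and NN 1, the farthest for Ccl6, it was 0.59. The genes are near neighbours on chromosome 11, with 1 gene starting between them. Ccl5 and Ccl9, which also have 1 gene between them, had r = 0.62 (exact permutation p = 0.114, adjusted p = 0.396) and rho = 0.64 (exact permutation p = 0.0962, adjusted p = 0.289), and r = 0.49 without NB 3 and NN 6.

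Cxcl9 and Cxcl10, likewise near neighbours, on chromosome 5, had r = 0.82 (exact permutation p = 0.014, adjusted p = 0.126) and rho = 0.95 (exact permutation p = 0.00114, adjusted p = 0.0513). Their r was 0.81 with genotype means removed and 0.67 without NB 2 and NB 8. By contrast Ccl4 and Ccl5 had r = 0.0027 (exact permutation p = 0.995, adjusted p = 0.995) and rho = −0.07 (exact permutation p = 0.882, adjusted p = 0.923). Without NB 2 and NN 6 the r of this pair was −0.32. Ccl2 and Cxcl1 had r = −0.54 (exact permutation p = 0.173, adjusted p = 0.45) and rho = −0.67 (exact permutation p = 0.0831, adjusted p = 0.288), and r = −0.49 without NB 8 and NN 4. NB 2 and NN 1, the lowest arrays of Cxcl1, were among the 3 highest of Ccl2.

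Pairs on different chromosomes reached similar values, and they are named after their values were seen. Ccl2 and Cxcl10 had r = 0.84 (exact permutation p = 0.00843, adjusted p = 0.126) and rho = 0.83 (exact permutation p = 0.0154, adjusted p = 0.138), and r = 0.84 without NB 8 and NN 4. Ccl2 and Cxcl9 had r = 0.82 (exact permutation p = 0.0122, adjusted p = 0.126) and rho = 0.81 (exact permutation p = 0.0218, adjusted p = 0.163), and r = 0.61 without the same arrays. Ccl4 and Cxcl1 had r = −0.84 (exact permutation p = 0.0105, adjusted p = 0.126) and rho = −0.69 (exact permutation p = 0.0694, adjusted p = 0.288), and r = −0.42 without NB 2 and NN 6. For Ccl5 and Cxcl9, r was −0.71 (exact permutation p = 0.0491, adjusted p = 0.300), and −0.75 without NB 3 and NN 6. Cxcl1 and Cxcl10, both on chromosome 5, are also named after their values were seen. Their r was −0.76 (exact permutation p = 0.0282, adjusted p = 0.211), and 0.15 without NB 2 and NN 1.

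Upstream sequence is shown for Ccl6 and Ccl9, for Cxcl9 and Cxcl10, and for Cxcl1, the most variable member. RefSeq promoters of GRCm38.p6 matched 7 of the 10 genes, and the 250 bases before the annotated start are printed 5′ to 3′ on the strand of the gene. Capitals mark 4 motifs searched on both strands: the interferon-stimulated response element (GAAA, any 2 bases, GAAA), the kappa B site (GGGA, any 2 bases, TTCC), the AP-1 site TGANTCA and the TATA box TATAAA.
Ccl6, chr11:83593088-83593337, minus strand: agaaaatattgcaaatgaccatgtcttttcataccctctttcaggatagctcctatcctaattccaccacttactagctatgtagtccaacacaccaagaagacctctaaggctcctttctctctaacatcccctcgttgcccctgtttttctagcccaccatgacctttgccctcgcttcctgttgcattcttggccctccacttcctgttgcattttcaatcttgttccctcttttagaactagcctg
Ccl9, chr11:83578637-83578886, minus strand: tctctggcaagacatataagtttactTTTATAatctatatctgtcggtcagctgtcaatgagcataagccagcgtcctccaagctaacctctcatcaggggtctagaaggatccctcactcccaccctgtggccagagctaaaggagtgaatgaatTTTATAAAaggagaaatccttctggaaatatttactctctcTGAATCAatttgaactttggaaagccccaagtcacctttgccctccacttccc
Cxcl9, chr5:92328080-92328329, minus strand: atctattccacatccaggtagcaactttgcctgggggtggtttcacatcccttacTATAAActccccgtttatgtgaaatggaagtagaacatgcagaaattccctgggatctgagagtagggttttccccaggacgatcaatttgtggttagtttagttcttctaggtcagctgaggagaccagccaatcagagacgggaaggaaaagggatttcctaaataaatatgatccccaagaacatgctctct
Cxcl10, chr5:92348890-92349139, minus strand: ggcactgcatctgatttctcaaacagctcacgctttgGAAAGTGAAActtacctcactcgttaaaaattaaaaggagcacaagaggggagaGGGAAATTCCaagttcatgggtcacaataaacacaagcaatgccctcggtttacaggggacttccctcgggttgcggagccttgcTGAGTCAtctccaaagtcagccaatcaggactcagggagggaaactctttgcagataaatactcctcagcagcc
Cxcl1, chr5:90890995-90891244, plus strand: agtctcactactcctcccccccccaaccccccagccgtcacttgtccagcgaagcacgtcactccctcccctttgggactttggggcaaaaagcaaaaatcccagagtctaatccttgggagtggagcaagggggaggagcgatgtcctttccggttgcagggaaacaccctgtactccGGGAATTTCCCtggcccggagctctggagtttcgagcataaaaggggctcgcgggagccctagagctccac
In these windows Cxcl10 held an interferon-stimulated response element from 213 to 204 bases before the start, a kappa B site from 159 to 150 and an AP-1 site from 74 to 68. Cxcl1 held 2 overlapping kappa B matches between 71 and 61 bases before the start. Ccl9 held an AP-1 site from 53 to 47 and 3 TATA matches, the nearer 2 of them overlapping between 94 and 87. Cxcl9 held only a TATA match, from 195 to 190, and Ccl6 held none of the 4. The interferon gamma-activated site TTCNNNGAA was also searched and had no match in these 5 windows. Among 32851 RefSeq windows of the same length, the shares with a match were 2.98% for the response element, 1.21% for kappa B, 6.75% for AP-1, 12.4% for the TATA box and 7.02% for the activated site. A match is a stretch of letters, not a site shown to be bound.

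No receptor of these ligands passed the test between the genotypes. Of 23 chemokine receptors and scavengers on a list, all 23 were tested, 0 passed with limma in either direction and 0 had an unadjusted p under 0.05. Their median log2 fold change was 0.02, with 14 positive and 9 negative. Ccr2, which lets monocytes respond to Ccl2, was at −2.49 ± 0.27 in NN and −2.27 ± 0.32 in NB (SD, n = 4 each), a log2 fold change of 0.23 (SE 0.185; interval 0.874 to 1.57 times). For Ccr1, the receptor of Ccl6 and Ccl9, the log2 fold change was 0.06 (SE 0.0932).

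On the CXC side, the neutrophil receptor Cxcr2 was at 0.07 (SE 0.143), all as log2 fold changes of NB over NN. Cxcr3 had −0.08 (SE 0.0919), and its 4 NN arrays lay close together, at −0.41 ± 0.02 (SD, n = 4). The Cxcl12 receptors Cxcr4 and Ackr3 had 0.02 (SE 0.201) and 0.0041 (SE 0.137). Cxcr5 of B cells had 0.04 (SE 0.215), and the endothelial scavenger Ackr1 had 0.02 (SE 0.118). The 95% confidence interval of each of these 8 receptors spanned 0. Cxcr6, the receptor of tissue-resident lymphocytes, had the smallest p of those higher in NB (log2 fold change 0.43, SE 0.324, limma adjusted p = 1). Ackr4, a scavenger of other CC chemokines, and Cxcr3 had the smallest p of those lower, with Ackr4 at −0.09 (SE 0.113).

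**Figure D4:**
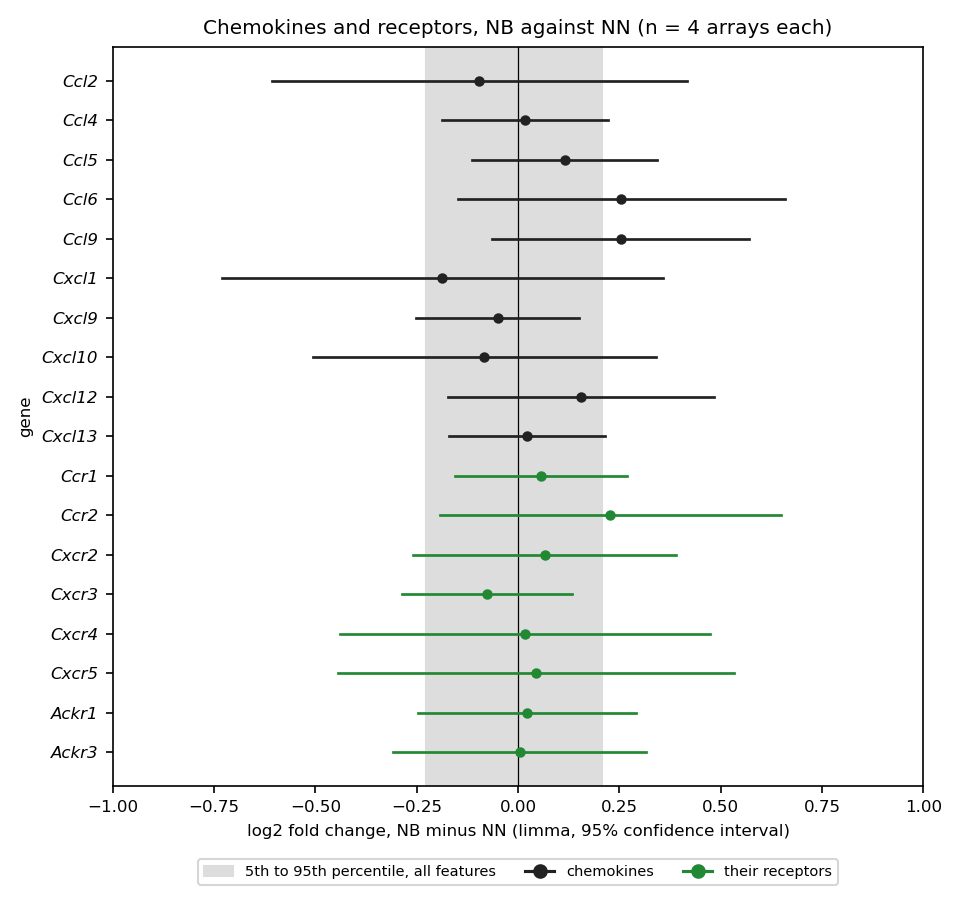
Points give the log2 fold change of NB over NN with its 95% confidence interval from limma, for the 10 chemokines (black) and 8 of their receptors (green), over the 5th to 95th percentile of all features (grey). Each interval spans 0, and Ccl6, Ccl9 and Ccr2, at 0.26, 0.25 and 0.23, lie just past the grey band's upper edge of 0.21.

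Other chemokine ligands of the array were counted from a list. Of 29 on the list, 27 were on the array and 24 were tested, with 0 called, 0 at an unadjusted p under 0.05 and a median log2 fold change of 0.04. Cxcl3 and Cxcl5, neutrophil chemokines, were well above background on 0 arrays, and Ccl12, a relative of Ccl2, on 1 NB array. The smallest p on the higher side belonged to the skin chemokine Ccl27a (log2 fold change 0.53, SE 0.312, limma adjusted p = 1), measured on 7 arrays because the spot on NN 1 was marked as an outlier. Next came Pf4 of platelets at 0.17 (SE 0.140). On the lower side were Ccl22, a ligand of CCR4, at −0.14 (SE 0.0820), and Xcl1, the lymphotactin gene, at −0.17 (SE 0.117).

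Inducers were examined from a list of 33 cytokines, their receptors and transcription factors. Of 31 tested, 0 passed with limma, 1 had an unadjusted p under 0.05 (1.69% of all features did), and the median log2 fold change was 0.04. Ifng, the inducer of Cxcl9 and Cxcl10, and Il6 were well above background on 0 of 8 arrays. Tnf, whose product activates nuclear factor kappa B, gave −0.02 (SE 0.101) as log2 fold change, and Il1b gave −0.04 (SE 0.167). Irf1, an effector of interferon, had −0.03 (SE 0.167), and Nfkbia, the inhibitor and target of nuclear factor kappa B, had −0.10 (SE 0.165). None of these signalling genes passed the test.

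Irf8, a transcription factor of the monocyte and dendritic lineages, was the exception at the unadjusted threshold. Its signal was 0.35, 0.33, 0.39 and 0.56 on NN arrays 1, 4, 6 and 7 and 0.62, 0.59, 0.79 and 0.61 on NB arrays 2, 3, 5 and 8. All 4 NB arrays were above all 4 NN arrays, a pattern that 0.426% of features showed in this direction. The ratio of NB to NN was 1.18 (log2 fold change 0.24, SE 0.0845, limma adjusted p = 1), and its unadjusted p of 0.0188 did not survive adjustment. Ifnb1, the dim gene of interferon beta, had 0.46 (SE 0.202, limma adjusted p = 1) and was well above background on 6 arrays. Lower in NB by smallest p were Nfkbia and Tnfsf11, the RANK ligand gene, at −0.14 (SE 0.230).

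Adhesion molecules through which leukocytes enter tissue also showed no call. Of 16 tested, 0 passed with limma, 0 had an unadjusted p under 0.05 and 11 were positive, with a median log2 fold change of 0.07. Icam1, the endothelial ligand of leukocyte integrins, had 0.21 (SE 0.116), and Itgb2, the beta chain of those integrins, had 0.20 (SE 0.145). On the lower side were Vcan, a matrix proteoglycan, at −0.33 (SE 0.175, with the NB 3 spot missing as an outlier), and Madcam1 of mucosal vessels, at −0.13 (SE 0.113).

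Cells that answer to these chemokines were checked by their markers. All 9 tested T cell markers and all 8 B cell markers were well above background on all 8 arrays, as were 8 of 9 natural killer cell markers and all 9 neutrophil markers. Summed linear signals, in units of the array's 75th percentile, were 14.6 to 22.8 in NN and 11.3 to 21 in NB for T cells, and 7.29 to 8.05 against 6.83 to 8.34 for B cells. They were 2.96 to 3.25 against 3.18 to 3.45 for natural killer cells and 23.2 to 30.9 against 24.6 to 31.7 for neutrophils. Cd8a gave 81.5% to 90.8% of the T cell sum, with a log2 fold change of −0.16 (SE 0.248), whereas 7 of the 9 T cell genes had positive values and the list's median was 0.06. Without Cd8a the T cell sum was 2.09 to 2.33 in NN and 2.09 to 2.44 in NB. For these 4 cell types the genotypes overlapped, and 0 markers passed the limma test. At an unadjusted p under 0.05 there was 1 of the 9 T cell markers, and 0 of the B cell, natural killer cell and neutrophil markers. Over all features the share at that threshold was 1.69%.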

How the data were processed

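Liver RNA of 2 genotypes (4 arrays each) was measured on 1-colour Agilent arrays. Per the file headers, the deposited intensity is a processed signal after background subtraction and spatial detrending, from Agilent Feature Extraction 11.5.1.1, with no normalization between arrays; the submitters' processing notes name version 9.1. The authors' value table holds linear intensity values whose sorted columns are identical; its scale is not stated, and each column's median is 84.2.

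Outlier spots were set to missing (248 to 621 per array) and none was saturated. Spots of a probe were averaged, and the log2 signal had its array's 75th percentile subtracted. A probe was kept when 4 or more of the 8 arrays marked it well above background (46848 of 60273), and the brightest kept probe represented a gene. Accessions were matched, without version, to RefSeq symbols of GRCm38.p6. NB was compared with NN by limma 3.58.1 in R 4.3.3 (lmFit, eBayes), with no covariates. The steps were tested on simulated data.

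Members and gene lists were chosen with earlier results of these data known. Named genes are the members, their receptors, inducers fixed by name, and the 2 smallest p in each direction of each pathway list, with called genes; 2 of these genes are not reported here. Alternatives covered background correction, scaling, the authors' table, filters, probe summary, weights, variance model, position on the slide, omission of single arrays, and an adjusted p of 0.1. The Cxcl12 probe exchange, the differences within slide columns and the marker sums without their leading genes were added after seeing the data. All 8 arrays shared a slide, and the cell type lists of dendritic, stellate, endothelial and cholangiocyte markers gave 0 calls.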

Additional observations from a re-analysis of the deposited data

Results flagged for a closer look

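Of 72 sets of 4 arrays of 1 genotype, covering the named genes, 3 held an array far from the other 3, and chance gives about 5% of sets. Cxcl1 on NB 2 was at −1.38, where the other NB arrays lay between −0.66 and −0.56. Ccl27a on NB 3 was at −0.26, with the others between 0.17 and 0.25. Xcl1 on NB 8 was at −4.47, with the others between −4.07 and −3.99. All are log2 signals relative to the 75th percentile of the array. NB 8 was also the array least like the rest, with a mean correlation of 0.990 across genes to the other arrays. Of the 20 sets of the 10 chemokines, 1 was among these.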

How the results depend on the processing

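Over 21 alternative fits, 0 chemokines passed the adjusted or the unadjusted threshold, and the smallest unadjusted p of any chemokine ranged from 0.0514 (the authors' value table) to 0.251 (without NB 3). At an adjusted p of 0.1, 0 chemokines were called as well. The number of features called over the array was 2 to 5, with 5 when all kept probes of a gene were averaged, and the count at an unadjusted p under 0.05 ranged from 552 to 1453. Ccl5, Ccl6, Ccl9 and Cxcl12 were positive in every fit, including Cxcl12 with its other probe (0.07). The log2 fold change changed sign for Ccl4 with normexp (−0.0021) and for Ccl2 with array weights (0.025). With 1 array left out, the range was −0.24 to 0.058 for Ccl2, −0.046 to 0.056 for Ccl4, −0.34 to 0.0093 for Cxcl1, −0.11 to 0.00069 for Cxcl9, −0.25 to 0.015 for Cxcl10, −0.020 to 0.069 for Cxcl13, 0.051 to 0.16 for Ccl5, 0.12 to 0.38 for Ccl6, 0.12 to 0.32 for Ccl9 and 0.061 to 0.25 for Cxcl12. The cause was not tested. The median of all features lay between −0.024 and 0.0020 in these fits. No paired analysis was possible because no sample number of the labels is shared between the genotypes. Slide columns do hold 1 array of each, and that block, reported with the results, called 0 chemokines. With 4 arrays a genotype, the 95% intervals still allow a Ccl6 level up to 1.58-fold higher and a Cxcl1 level up to 1.66-fold lower in NB, or 1.59-fold and 1.41-fold with the column as a block.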

Other observations

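Further genes of the chemokine system varied widely or lay apart, and they are named here after their values were seen. Cxcr6 spanned a 3.44-fold range, from −4.03 on NN 6 to −2.25 on NB 8. Ccl11, the eosinophil chemokine eotaxin, was measured on 5 arrays, since its spots were marked as outliers on NN 1, NN 4 and NB 5, and ran from 2.09 on NB 8 to 3.85 on NB 3. Ackr2, a decoy receptor of inflammatory CC chemokines, had a signal of 5.97 on NN 1 and 4.90 to 5.48 on the 6 other arrays that measured it.

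Among the dendritic cell markers, Flt3, the receptor of a growth factor for that lineage, had a log2 fold change of 0.47 (SE 0.103, limma adjusted p = 1, from an unadjusted p of 0.00137). It was at −2.27, −2.14, −2.08 and −2.14 on NN arrays 1, 4, 6 and 7 and at −1.92, −1.61, −1.72 and −1.49 on NB arrays 2, 3, 5 and 8. All NB arrays were above all NN arrays, a pattern that 0.426% of features with a value on every array showed in this direction. Flt3, too, is named after its values were seen. The other 8 markers of the list did not follow it: they ran from −0.15 for Clec10a to 0.07 for Clec9a, and the list of 9 had a median of 0.035, with 6 positive and 3 negative.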
